A study of Saccharomyces cerevisiae with 12 samples.

Results

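The 10 genes described here encode the 8 enzymes of heme synthesis in baker's yeast (HEM1, HEM2, HEM3, HEM4, HEM12, HEM13, HEM14 and HEM15) and the heme-dependent transcription factors Hap1 and Rox1. They were chosen by gene symbol in the array annotation and not by their signal, and they are 10 of the 5656 genes that had a probe set of their own among 9275 yeast probe sets. A probe set is the group of short probes on the array that reports 1 transcript, and each gene is represented by its probe set with the highest mean over the 12 arrays. HAP1 had 3 probe sets and the other members had 1 each. All 10 genes gave signals above the highest non-target control, a bacterial or mouse sequence not added to the sample, on all 12 arrays.

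RNA was measured on 12 Affymetrix arrays, 1 per glucose-limited chemostat, in 4 groups of 3 separately numbered cultures, all kept at 30 °C, pH 5 and a dilution rate of 0.1 per hour. CEN.PK113-7D (MATa MAL2-8C SUC2) served as the reference under aeration and under nitrogen. IMZ305 was grown under aeration and came from CEN.PK102-12A, an auxotrophic strain of the same family (ura3-52, leu2-3,112, his3-Δ1), with ALD2 and ALD3 replaced by LEU2, ALD4 by HIS3, ALD5 by KanMX4, ALD6 by hphNT1, ACS2 by natNT2 and ACS1 by AmdS, and it carried eutE of Escherichia coli on the URA3 plasmid pUDE151. IMZ383 was grown under nitrogen and came from the same auxotrophic strain with ACS2 replaced by HIS3 and ACS1 by LEU2, and it carried pflB and pflA of E. coli on the URA3 plasmid pUDE204. EutE makes acetyl-CoA directly from acetaldehyde, and pyruvate formate-lyase (PflB with its activating enzyme PflA) makes it from pyruvate, so both replace the native route. Each engineered strain is a single strain grown under 1 oxygen condition, and the reference lacks their markers and plasmids. Cultures with air received 7.5 g/L glucose. Those without oxygen received 20 g/L glucose with 10 mg/L ergosterol and 420 mg/L Tween 80, so oxygen and medium cannot be told apart. A signal is a mean over the cells of a culture, so fewer cells with a transcript and less transcript per cell cannot be told apart either.

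Heme is made in a pathway that starts and ends in the mitochondrion and runs in between through the cytosol. Hem1 joins glycine and succinyl-CoA to 5-aminolevulinate; Hem2, Hem3, Hem4 and Hem12 build and trim the porphyrin ring; Hem13 and Hem14 oxidise it; and Hem15, ferrochelatase, inserts iron. The steps of Hem13 (coproporphyrinogen III oxidase) and Hem14 (protoporphyrinogen oxidase) use molecular oxygen, which ties heme supply to aeration. Hap1 is activated by heme and in air turns on genes of respiration and ROX1, and Rox1 in turn represses genes used when oxygen is scarce, among which HEM13 is a textbook example.

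The arrays had been scaled to a common level and agreed closely within groups, with correlations of log2 signal between 0.966 and 0.987. Of the deleted genes, ACS1, ACS2, ALD4 and ALD6 were checked and read as labelled: they were at least 408-, 167-, 616- and 275-fold lower in IMZ305 than in the reference with air, and ACS1 at least 23.6-fold lower in IMZ383 than in the reference without oxygen, where the 3 IMZ383 arrays gave ACS2 a mean of 4.87 against 601. ALD4 and ALD6, not listed as deleted in IMZ383, were above the controls on its 3 arrays but also called lower there than in the reference without oxygen. COX5A, the aerobic form of a cytochrome oxidase subunit, was 4.97-fold lower and its hypoxic counterpart COX5B 4.86-fold higher without oxygen in the reference. The level of the spiked hybridization control BioB split the arrays: it was 7.9 to 12 on reference arrays 1 and 2 with air and on all IMZ305 arrays, and 42.9 to 86.2 on reference array 3 with air and on all arrays without oxygen. This split moves with the oxygen and IMZ305 comparisons, so members' values with the BioB level in the model are given beside them; its part in the results was otherwise not tested. In the following, a gene rose or fell where limma gave a two-sided Benjamini-Hochberg adjusted p under 0.05 over all 9275 probe sets, and values are signals in linear units, with mean ± SD of the 3 arrays of a group.

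**Figure D1:**
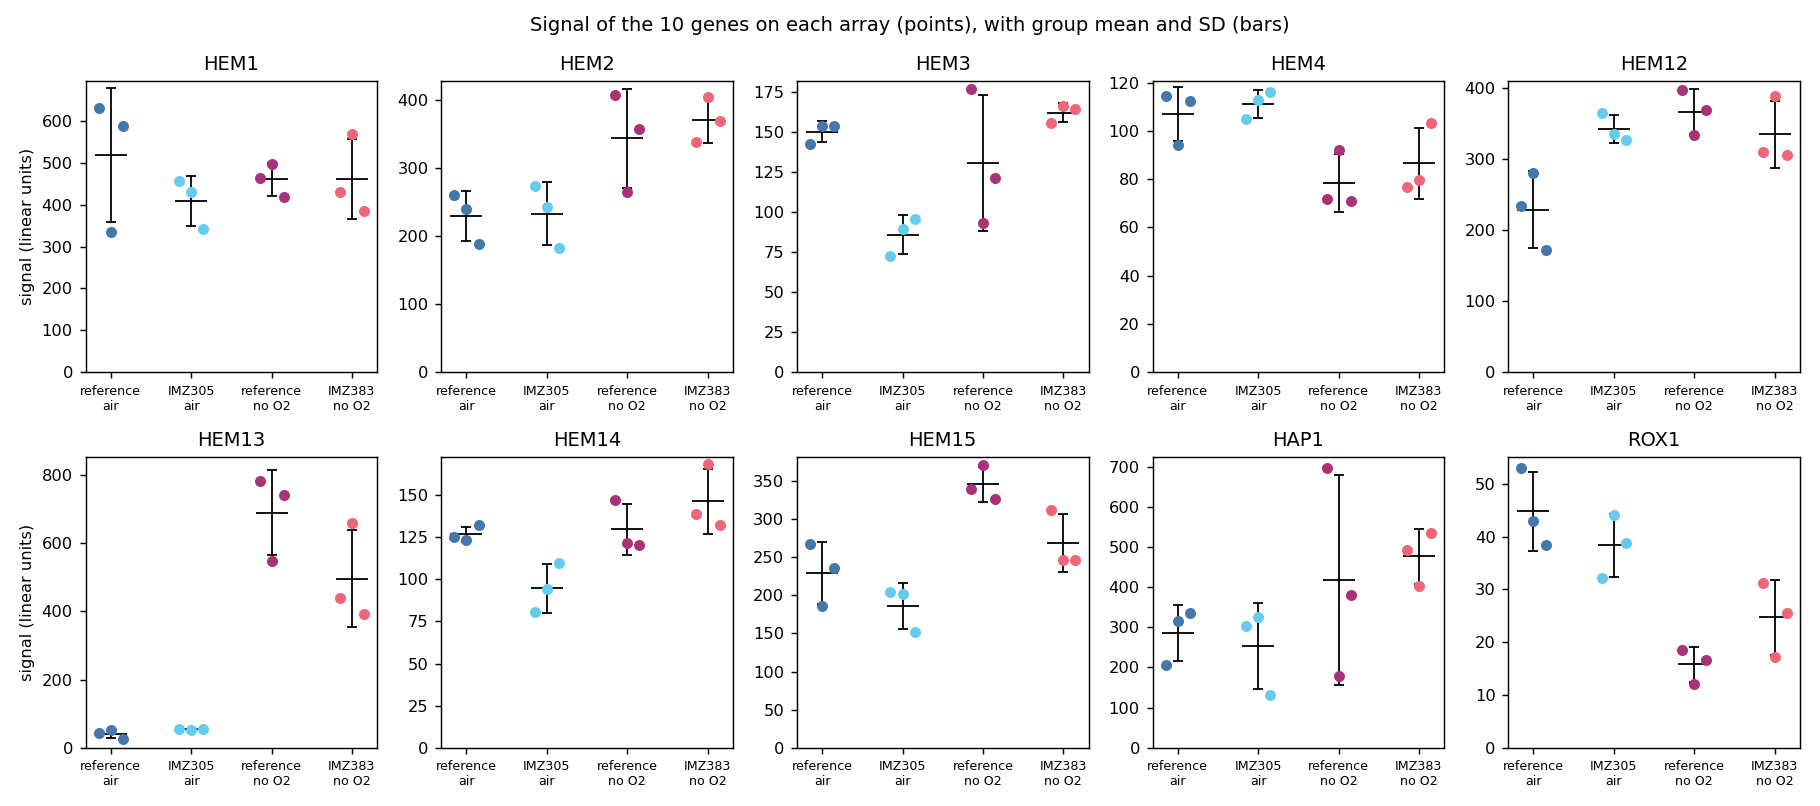
Signal of each of the 10 genes on each of the 12 arrays (y axis, linear array units, starting at 0) in the 4 groups (x axis), 1 panel per gene. Points are arrays 1 to 3 of a group from left to right, and bars are the group mean and SD (n = 3). HEM13 lies between 26.4 and 54.9 on all arrays with air and between 392.6 and 781.7 on all arrays without oxygen, and ROX1 is lowest in the reference without oxygen.

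The first question was how the heme genes of the reference strain differ with oxygen. Without oxygen 3 of the 8 heme synthesis genes rose, HEM13, HEM12 and HEM15, and HEM4 fell. ROX1 fell too, and HAP1 is described separately because its probe sets disagreed. HEM13 stood out with a 17.4-fold rise, whereas the other rises were 1.52- to 1.63-fold. Over all probe sets 11% rose and 23.3% fell in this comparison, so the 2 of 10 genes that fell are near the share of the whole array. For 43.4% of all probe sets the arrays of the groups did not overlap, so a lack of overlap alone sets no gene apart. The median log2 change of the 10 genes was 0.2 and that of all probe sets -0.18.

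At the start of the pathway, HEM1 (YDR232W), the gene of 5-aminolevulinate synthase, did not pass the test. Its signals were 632.5, 336.2 and 589.4 with air and 465.6, 497.9 and 419.5 without oxygen, a log2 difference of -0.12 with a 95% interval of -0.68 to 0.43. The aerobic arrays spread around all of the anaerobic ones. HEM2 (YGL040C), which encodes the enzyme that joins aminolevulinate into porphobilinogen, read 260.9, 239.3 and 188.8 with air and 407.8, 264.7 and 357.7 without oxygen. The groups did not overlap, but the log2 difference of 0.57 ± 0.21 (SE) missed the threshold (adjusted p = 0.0585, limma). HEM3 (YDL205C, porphobilinogen deaminase) read 142.5, 153.9 and 154 with air and 176.6, 93 and 121.4 without oxygen, where the arrays lay on both sides of the aerobic ones (log2 difference -0.25, interval -0.71 to 0.21).

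HEM4 (YOR278W) encodes uroporphyrinogen III synthase, which closes the ring. It gave 114.6, 94.4 and 112.3 with air and 71.8, 92.2 and 70.9 without oxygen. Each anaerobic array was below each aerobic one, but the closest pair differed by little, and the fall was 1.37-fold (log2 -0.46 ± 0.15, adjusted p = 0.0403). After quantile normalization the log2 change was -0.09 and after centring each array on its median -0.06, and neither was called, so the call of HEM4 depends on the scaling. It was also lost without any of 7 of the 12 arrays (adjusted p from 0.0525 to 0.13): reference arrays 1 and 3 with air, reference arrays 1 and 3 without oxygen and all IMZ305 arrays. HEM12 (YDR047W), the gene of uroporphyrinogen decarboxylase, read 233.8, 280.2 and 171.2 with air and 396.3, 333.1 and 368.9 without oxygen. All anaerobic arrays were above all aerobic ones, and the rise was 1.63-fold (log2 0.71 ± 0.18, adjusted p = 0.0124).

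HEM13 (YDR044W) was the member with the greatest change. Its signal was 44.4, 51.1 and 26.4 with air and 781.7, 548.7 and 740.7 without oxygen. The groups lay an order of magnitude apart, with means of 40.6 ± 12.8 and 690 ± 124, which is a 17.4-fold rise with a 95% interval of 11.4- to 26.6-fold (log2 4.12 ± 0.27, adjusted p = 5.07e-06). The other oxygen-using step showed no such rise: HEM14 (YER014W) read 124.9, 123.4 and 132 with air and 147.3, 121.4 and 120.6 without oxygen, a log2 difference of 0.03 with an interval of -0.29 to 0.35. HEM15 (YOR176W), at the end of the pathway, read 267.2, 185.6 and 235.3 with air and 340.1, 371 and 326.2 without oxygen. Its groups did not overlap, and it rose 1.52-fold (log2 0.61 ± 0.17, adjusted p = 0.0224), a call that was lost without reference array 2 with air (0.0659) or without reference array 2 without oxygen (0.069).

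ROX1 (YPR065W), the gene of the hypoxic repressor, moved opposite to HEM13. Its signal was 53.1, 42.9 and 38.4 with air and 18.6, 12.1 and 16.7 without oxygen. The lowest aerobic array was above the highest anaerobic one, and the fall was 2.86-fold (log2 -1.51 ± 0.25, adjusted p = 0.00139). The changes of HEM13 and ROX1 were called without any 1 of the 12 arrays and under the 11 other settings at this threshold, with log2 changes from 3.84 to 4.69 and from -1.64 to -1.12. Within the arrays of high BioB level, where reference array 3 alone stands for air, the log2 change was 4.69 for HEM13 (adjusted p = 2.45e-05), -1.3 for ROX1 (0.0316) and 1.09 for HEM12 (0.00358), whereas HEM15 (0.55, adjusted p = 0.154) and HEM4 (-0.53, 0.117) were not called. These p-values assume that the lone aerobic array varies like the arrays of the other groups. Centring moved the median of all probe sets from -0.18 to 0.22, and relative to that scale HEM2 rose by 0.97 (adjusted p = 0.00986) and HEM14 by 0.42 (0.0423). The share of calls that were rises was 32.1% as deposited, 48.9% after quantile normalization and 67.6% after centring.

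**Figure D2:**
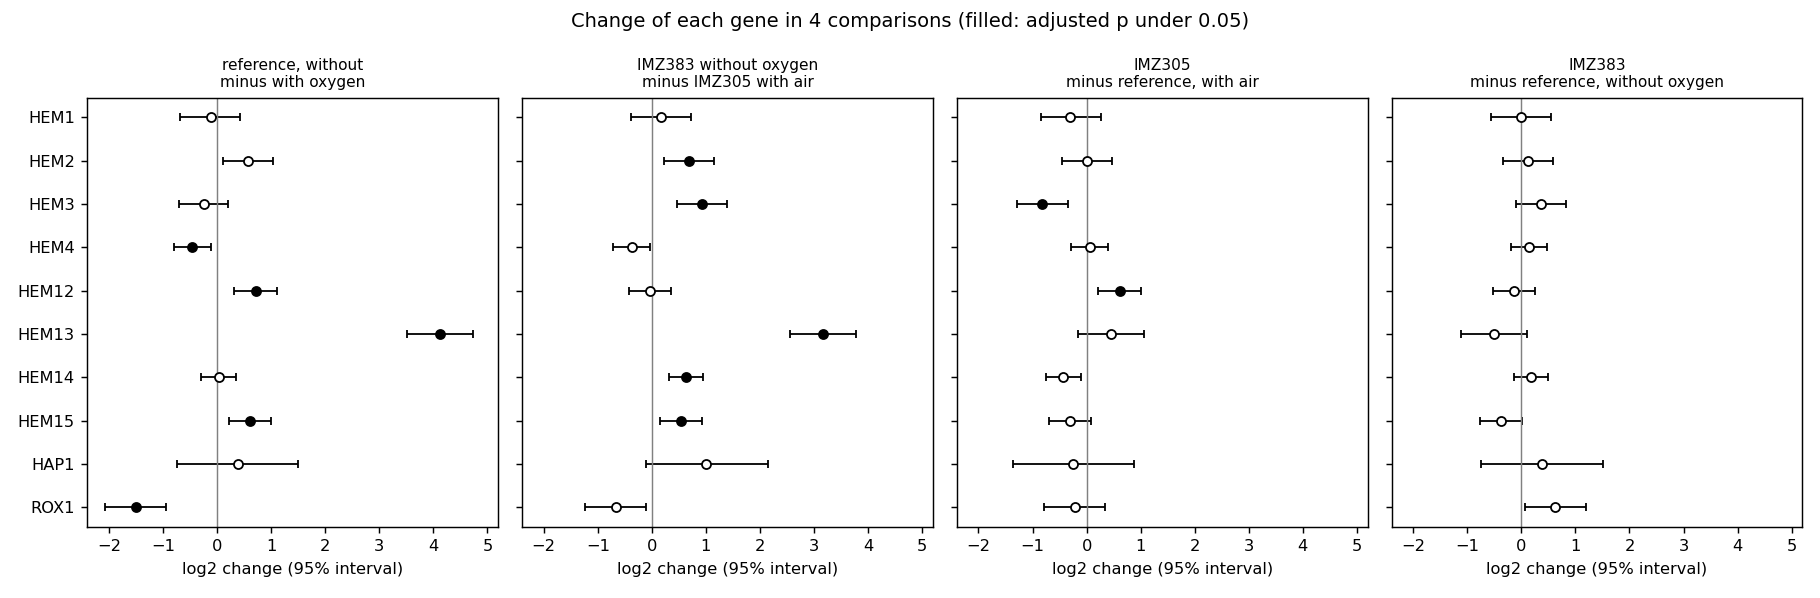
Log2 change of the 10 genes (x axis) in 4 comparisons, 1 panel each, with the genes on the y axis. Points are limma estimates and bars their 95% intervals; filled points had an adjusted p under 0.05. HEM13 is far to the right in both comparisons across oxygen (4.12 and 3.17), and no point is filled in the comparison of IMZ383 with the reference, where HAP1 is shown by its probe set of highest mean.

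The same genes could be set across oxygen in the engineered strains, which share no array with the reference. Strain and oxygen cannot be told apart here, since IMZ305 was grown only with air and IMZ383 only without oxygen. In IMZ383 without oxygen 5 of the 8 heme synthesis genes were higher than in IMZ305 with air, HEM13, HEM3, HEM14, HEM2 and HEM15, and none of the 10 genes was called lower (with array weights HEM4 and ROX1 were, at adjusted p = 0.0135 and 0.0307). Over all probe sets 10.1% were called higher and 16% lower, and for 43.9% the arrays of the groups did not overlap. The median log2 difference was 0.58 for the 8 synthesis genes and -0.09 for all probe sets.

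HEM13 was again furthest apart, with 54.9, 51.1 and 54.9 in IMZ305 and 438.5, 658.5 and 392.6 in IMZ383, a 9.03-fold difference (log2 3.17 ± 0.27, adjusted p = 4.58e-05). The 3 IMZ305 arrays were nearly equal, and each IMZ383 array was several times higher. HEM3 read 72.4, 89.6 and 95.6 in IMZ305 against 155.5, 166.4 and 164.3 in IMZ383 (1.9-fold, adjusted p = 0.00937). HEM14 read 80.5, 94.1 and 109.6 against 139, 168.4 and 132.1 (1.55-fold, adjusted p = 0.0097). For both genes the strains did not overlap, and the low arrays were those of IMZ305, which with air also lay under the reference. HEM2 read 273.4, 243.1 and 182 in IMZ305 against 338.3, 404.7 and 368.7 in IMZ383 (1.61-fold, adjusted p = 0.0354).

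HEM15 read 204.9, 201.8 and 151.3 against 312.4, 246.9 and 246.8 (1.45-fold, adjusted p = 0.0464). This last call was lost when any of 10 of the 12 arrays was left out, that of HEM2 with 6 of them, and those of HEM13, HEM3 and HEM14 with none. With the BioB level in the model only HEM13 remained called (log2 4.03, adjusted p = 0.000588). There the shift comes from the aerobic reference arrays alone, since IMZ305 and IMZ383 arrays share no BioB level. Among the genes that did not pass, HEM12 had 363.5, 334.3 and 326.3 in IMZ305 and 309.9, 387.6 and 304.5 in IMZ383, and ROX1 had 32.2, 44.1 and 38.8 against 31.3, 17.2 and 25.6. The log2 difference of ROX1 was -0.67 with an interval of -1.23 to -0.11 (adjusted p = 0.08), and that of HEM4, with 104.9, 112.7 and 116 against 76.8, 79.6 and 103.3, was -0.37 (0.099).

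The next comparison asked which heme genes differ when the native acetyl-CoA route is replaced by EutE under aeration. HEM3 fell and HEM12 rose in IMZ305, and the other 8 genes did not pass the test. Over all probe sets 6.09% rose and 8.3% fell, so 1 gene of 10 in each direction is near the share of the whole array. The arrays of the groups did not overlap for 31.6% of all probe sets. HEM3 averaged 85.9 ± 12 in IMZ305 and 150 ± 6.61 in the reference, a 1.76-fold fall (log2 -0.82 ± 0.2, adjusted p = 0.0293), with the highest IMZ305 array (95.6) well under the lowest reference array (142.5). HEM12 averaged 341 ± 19.6 against 228 ± 54.7, a 1.52-fold rise (log2 0.61 ± 0.18, adjusted p = 0.0487). HEM14 was lower on every IMZ305 array than on any reference array, at 94.7 ± 14.6 against 127 ± 4.59, but the log2 difference of -0.43 missed the threshold (adjusted p = 0.0743).

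HEM13 showed no called difference in air: it averaged 53.6 ± 2.19 in IMZ305 and 40.6 ± 12.8 in the reference (log2 0.45, interval -0.16 to 1.06). The interval of HEM1, with 456.6, 430.5 and 342.4 in IMZ305, ran from -0.85 to 0.26, that of HEM2 from -0.45 to 0.47, that of HEM4 from -0.28 to 0.39, that of HEM15 from -0.69 to 0.09 and that of ROX1 from -0.78 to 0.34. The threshold was passed narrowly. Within the arrays of low BioB level, without reference array 3, the log2 change of HEM3 was -0.8 (adjusted p = 0.0725) and that of HEM12 0.41 (0.103). The call of HEM3 was lost without any of 5 arrays, the 3 of the reference with air and IMZ305 arrays 1 and 2 (adjusted p from 0.0632 to 0.107), and that of HEM12 without any of 10 arrays (0.0594 to 0.146), all but reference array 2 with air and IMZ383 array 2.

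The comparison of IMZ383 with the reference without oxygen asked the same of the pyruvate formate-lyase strain. None of the 10 genes was called by limma, and 1 of them, ROX1, had an unadjusted p under 0.05. This comparison had few calls on the whole array, where 1.69% of probe sets rose and 0.593% fell, and 74.1% of the calls were rises against 60.2% after quantile normalization and 54.4% after centring. ROX1 averaged 24.7 ± 7.09 in IMZ383 and 15.8 ± 3.34 in the reference, a log2 difference of 0.62 with an interval of 0.06 to 1.19 (adjusted p = 0.273). HEM13 averaged 497 ± 142 against 690 ± 124 (log2 -0.5, interval -1.11 to 0.11), and HEM15 269 ± 37.8 against 346 ± 22.9 (log2 -0.37, interval -0.76 to 0.01). The HEM15 arrays of the strains did not overlap, as was so for 20.4% of all probe sets, whereas those of HEM13 and ROX1 did.

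HEM1 averaged 462 ± 96.7 in IMZ383 and 461 ± 39.4 in the reference without oxygen, with single IMZ383 arrays at 431.5, 570.4 and 384.3. The intervals of the other synthesis genes were -0.33 to 0.59 for HEM2, -0.1 to 0.83 for HEM3, -0.19 to 0.48 for HEM4, -0.53 to 0.26 for HEM12 and -0.14 to 0.49 for HEM14. None of these intervals reached a doubling. The ratio of 3' to 5' signal of ACT1, a measure of RNA integrity and labelling, was 1.37 to 1.47 on the IMZ383 arrays and 1.67 to 1.9 on the reference arrays without oxygen, and its part in these values was not tested.

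Whether the strains differ from the reference by different amounts was tested directly, as the IMZ383 effect without oxygen minus the IMZ305 effect with air. This is arithmetically also the oxygen difference of the engineered strains minus that of the reference. HEM3 alone was called: it was 1.76-fold lower in IMZ305 and 1.29-fold higher, with no call, in IMZ383, and the difference between both was 1.18 on the log2 scale (SE 0.29, interval 0.53 to 1.83, adjusted p = 0.0367). Over all probe sets 5.92% were called higher and 2.95% lower, and 66.7% of the calls were higher, against 56.5% after quantile normalization and 48.9% after centring. The HEM3 call was lost without any of 9 arrays (adjusted p from 0.0571 to 0.0898) and with the BioB level in the model (log2 1.16, adjusted p = 0.0701). HEM12 (-0.74, adjusted p = 0.0981), HEM14 (0.6, 0.0952), HEM13 (-0.95, 0.161) and ROX1 (0.85, 0.173) missed the threshold. Their unadjusted 95% intervals were -1.3 to -0.19, 0.16 to 1.05, -1.81 to -0.09 and 0.05 to 1.64, and 5 of the 10 genes had an unadjusted p under 0.05. After adjustment over all probe sets, the 9.03-fold and 17.4-fold oxygen differences of HEM13 are therefore not shown to differ.

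HAP1 (YLR256W) encodes the heme-activated zinc cluster activator and was read by 3 probe sets, which disagreed. The probe set of highest mean, 3270_f_at, carries the suffix that Affymetrix gives to sets shared with similar sequences, as does 3493_f_at, whereas 10058_at carries none. The signals of 3270_f_at were 204.9, 315.3 and 334.6 in the reference with air, 304.2, 325.5 and 130.2 in IMZ305, 696.3, 178 and 380.9 in the reference without oxygen and 493.4, 401.5 and 534.8 in IMZ383. They varied up to several-fold within a group, and no comparison was called (log2 0.38 with an interval of -0.75 to 1.5 across oxygen in the reference).

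The probe set 10058_at varied less. It read 195, 233.5 and 198.3 in the reference with air, 206.4, 216.7 and 188.5 in IMZ305, 201.5, 169.4 and 140.5 in the reference without oxygen and 254.3, 302.9 and 259.3 in IMZ383. All IMZ383 arrays were above all others, and the difference from the reference without oxygen was 1.61-fold (log2 0.69 ± 0.14, adjusted p = 0.0436). This call was lost without any of 10 of the 12 arrays and under 6 of 10 other settings (adjusted p 0.0742 after quantile normalization and 0.149 after centring). Across oxygen in the reference, 10058_at differed by -0.3 with no call (adjusted p = 0.134).

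The probe set 3493_f_at gave yet another pattern. It read 134.7, 196 and 191.3 in the reference with air and 411.1, 284.2 and 485.9 without oxygen, a 2.24-fold rise (adjusted p = 0.00878), and 155.1, 197.1 and 129.6 in IMZ305 against 400.6, 456.8 and 276.8 in IMZ383, a 2.34-fold difference (adjusted p = 0.00912). Neither call held with the BioB level in the model. Over the 12 arrays, as a description, the log2 signals of 3270_f_at and 3493_f_at correlated at r = 0.677, those of 3270_f_at and 10058_at at 0.399 and those of 10058_at and 3493_f_at at 0.116. No direction across oxygen is therefore given for HAP1.

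**Figure D3:**
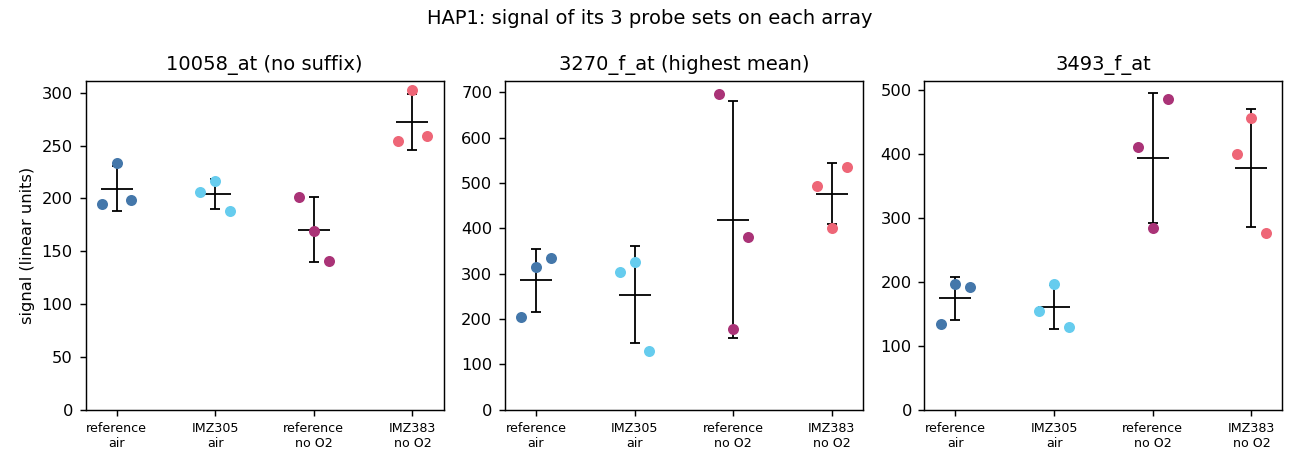
Signal of the 3 HAP1 probe sets on each array (y axis, linear array units, starting at 0) in the 4 groups (x axis), with group mean and SD (n = 3). 10058_at is highest in IMZ383 (272 ± 26.7), whereas 3493_f_at is high in both groups without oxygen and 3270_f_at spreads from 178 to 696.3 among 3 reference arrays.

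Genes known to be repressed by Rox1 were followed as a group of 7, chosen with earlier results of these data known. In the reference without oxygen 6 rose, none fell and the median log2 change was 3.89, against -0.18 for all probe sets, of which 11% rose and 23.3% fell. ANB1, the hypoxic form of a translation factor, went from 15 ± 3.75 to 3174 ± 210, a 216-fold rise (adjusted p = 1.53e-07). TIR1, a cell wall mannoprotein, rose 75.5-fold from 93.7 ± 8.31 to 7074 ± 607 (adjusted p = 3.21e-08). AAC3, a mitochondrial ADP/ATP carrier, was not above the controls with air and was at least 31.4-fold higher without oxygen, FET4, a low-affinity iron transporter, was called 14.9-fold higher although only 2 of the 3 aerobic arrays read it above the controls, and COX5B and HMG2 rose 4.86- and 1.46-fold. The other member, CYC7, a form of cytochrome c, averaged 54.2 ± 18.2 with air and 72.1 ± 11 without oxygen in the reference with no call (adjusted p = 0.169). It was called 2.81-fold higher in IMZ383 than in IMZ305, a comparison in which all 7 genes were called higher and 4 with the BioB level in the model. In that comparison 10.1% of all probe sets were called higher.

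ROX1 itself fell in the reference across oxygen and not by a called amount in the engineered strains. In air, IMZ305 had ROX1 at 38.4 ± 5.96 and the reference at 44.8 ± 7.53 with no call, while 2 of the 7 genes rose in IMZ305: TIR1 2.96-fold (adjusted p = 0.000762) and AAC3 at least 1.63-fold (0.0291). Of all probe sets 6.09% rose in IMZ305. None of the 7 was called by limma in IMZ383 against the reference without oxygen, and 1 had an unadjusted p under 0.05. Few probe sets were called in that comparison, where 1.69% rose and 0.593% fell. The difference between the strain effects was called for TIR1 (log2 -1.7, adjusted p = 0.00399).

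Of 8 genes known to be activated by Hap1, 5 fell and 1 rose in the reference without oxygen, with a median log2 change of -1.81 against -0.18 for all probe sets. Of all probe sets 23.3% fell and 11% rose, so the single rise is near the share of the whole array. CYB2, the lactate dehydrogenase cytochrome b2, fell 79.4-fold from 1459 ± 209 to 18.5 ± 4.15 (adjusted p = 3.16e-08). HMG1, a form of the enzyme that commits carbon to sterols, fell 5.99-fold (4.76e-07), and CYT1 and CYC1, the cytochromes c1 and c, fell 3.43- and 6.17-fold. CTT1, the cytosolic catalase, fell too, but only 2 of the 3 anaerobic arrays read it above the controls. NCP1, the reductase that serves sterol-synthesising P450 enzymes, rose 2.4-fold. In the engineered strains across oxygen 6 were called lower and 1 higher, CYC7. There 16% of all probe sets were called lower and 10.1% higher, so the single higher call is near the share of the whole array. With the BioB level in the model 4 were lower and 1 higher. Between strains, NCP1 rose 2.78-fold (adjusted p = 0.000139) and CYB2 fell 1.74-fold (0.018) in IMZ305, and HMG1 rose 2.32-fold in IMZ383 (0.000663).

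**Figure D4:**
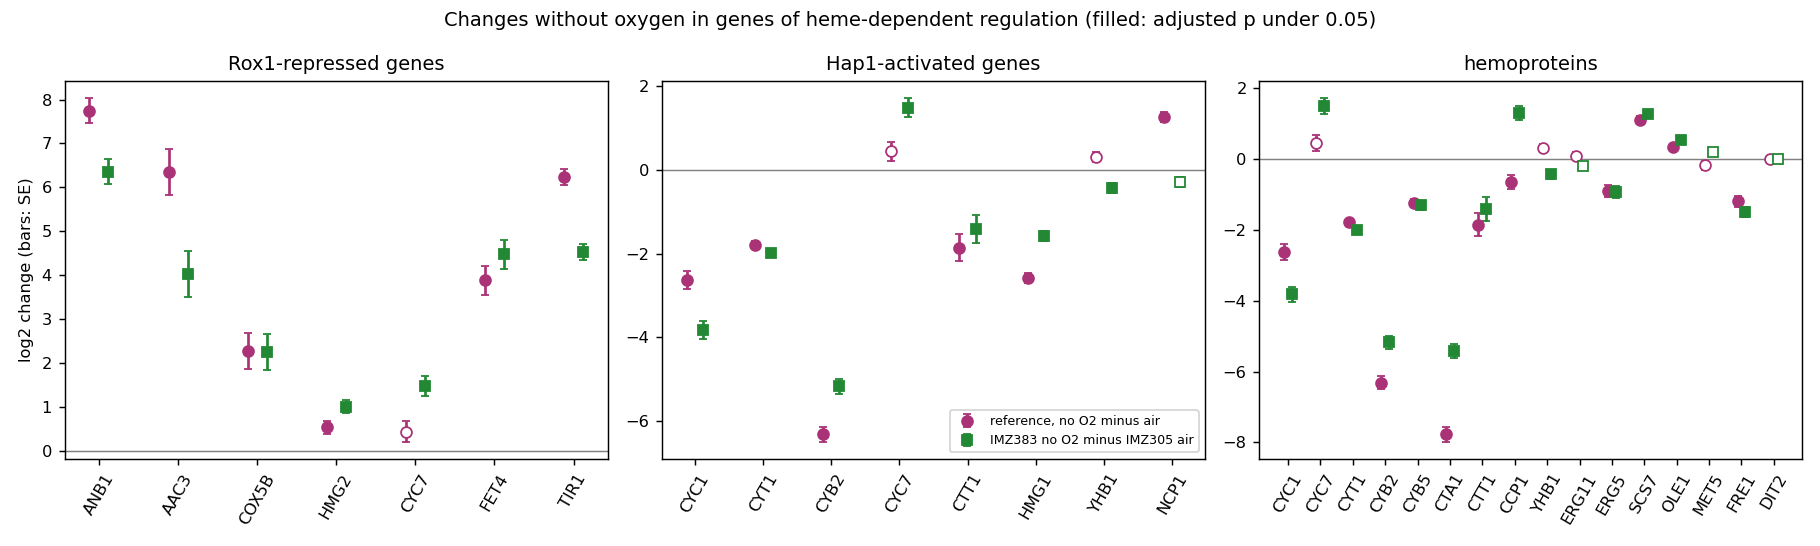
Log2 change without oxygen (y axis) of genes repressed by Rox1, genes activated by Hap1 and genes of heme proteins (x axis; CYC1, CYC7, CYT1, CYB2, CTT1 and YHB1 appear in more than 1 panel), in the reference (circles) and between IMZ383 and IMZ305 (squares). Bars are standard errors, and filled symbols had an adjusted p under 0.05. Of the Rox1-repressed genes 6 of 7 rose in the reference, and 9 of 16 genes of heme proteins fell; AAC3 in the reference is a fitted value above a group under the controls, and DIT2 lay under the controls on all arrays.

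Heme proteins were counted as the users of the pathway. Without oxygen 9 of 16 fell and 2 rose in the reference, where 23.3% of all probe sets fell and 11% rose, so the rises are near the share of the whole array. CTA1, the peroxisomal catalase, fell furthest, by 218-fold from 1547 ± 196 to 7.3 ± 2.35 (adjusted p = 3.16e-08), followed by CYB2, and CYT1, CYC1 and CYB5 fell as well. SCS7 and OLE1, a fatty acid hydroxylase and a desaturase with a cytochrome b5 domain, rose. After centring 6 rose and 8 fell. The engineered strains across oxygen had 9 lower and 4 higher, where 16% of all probe sets were called lower and 10.1% higher. With the BioB level in the model 7 were lower and 3 higher.

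Between strains, CTA1 (3.94-fold), CCP1, the mitochondrial cytochrome c peroxidase (1.8-fold), and CYB2 fell in IMZ305, and CYB5 (1.83-fold) and ERG5 (1.86-fold) rose. There 8.3% of all probe sets fell and 6.09% rose. In IMZ383 CYB5 (1.75-fold), CCP1 (2.15-fold) and ERG5 (1.84-fold) rose, a count of 3 that became 1 after quantile normalization and 1 rise with 1 fall after centring, and 1 to 4 rises without 1 array. Of all probe sets 1.69% rose and 0.593% fell in IMZ383. The direct test between the strain effects called CTA1 (log2 2.35, adjusted p = 0.00206), CCP1 (1.95, 0.00351) and CYB2 (1.14, 0.0238) higher and CYC1 (-1.19, 0.0474) and YHB1 (-0.75, 0.0233), a flavohemoglobin, lower. CYB5 and ERG5, which serve sterol synthesis, were not called in it. This test called 5.92% of all probe sets higher and 2.95% lower. Without oxygen CTA1 was near the controls, at 7.3 ± 2.35 in the reference and 9.13 ± 0.551 in IMZ383. The highest controls on these arrays reached 7 and 7.1, so a fall like that in IMZ305 could not be read there. The called difference of CTA1 thus rests mainly on its fall with air.

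The steps around the pathway included 15 genes of heme transport, breakdown, side branches and the iron supply of ferrochelatase. HMX1, the heme oxygenase that degrades heme, fell 19.8-fold in the reference without oxygen, from 324 ± 31.4 to 16.4 ± 2.23 (adjusted p = 1.66e-07). It was 8.31-fold lower in IMZ383 without oxygen (37.9 ± 7.94) than in IMZ305 with air (311 ± 17.7). Without oxygen it was 2.3-fold higher in IMZ383 than in the reference (adjusted p = 0.00525), and the difference between the strain effects was called too (log2 1.26, adjusted p = 0.0103). YAH1, a mitochondrial ferredoxin that serves heme A synthesis, rose 2.67-fold in the reference without oxygen, and ARH1, COX15 and MRS4 fell 1.33-, 1.48- and 1.75-fold. These small falls depend on the scaling, with 3 rises and 2 falls of the 15 after quantile normalization and 4 and 1 after centring. As deposited, 1 of the 15 rose and 4 fell in the reference, near the shares of all probe sets (11% and 23.3%).

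In IMZ305 with air, MET8, which makes siroheme from the shared precursor, rose 2.16-fold from 32.1 ± 1.15 to 69.5 ± 5.8 (adjusted p = 0.0124). PUG1, a plasma membrane transporter of porphyrins and heme, rose 2.6-fold from 18.5 ± 4.77 to 47.1 ± 2.36 (0.0444), and YAH1 rose 1.64-fold (0.049). These were 3 of the 15 genes, and none was called lower, where 6.09% of all probe sets rose and 8.3% fell. With the BioB level in the model, 1 of the 15 genes was called.

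Both substrates of Hem1 were followed through 8 genes of succinyl-CoA and glycine supply. In the reference without oxygen 6 fell and 1 rose, where 23.3% of all probe sets fell and 11% rose, so the single rise is near the share of the whole array. LSC1, a subunit of succinyl-CoA ligase, fell 2.85-fold from 1678 ± 157 to 588 ± 43.9 (adjusted p = 3.96e-06), and KGD2 and KGD1 of the 2-oxoglutarate dehydrogenase complex fell 2.1- and 1.76-fold. SHM2, the cytosolic serine hydroxymethyltransferase, rose 2.14-fold (0.000174). After centring 2 of the 8 rose and 2 fell. GLY1, the threonine aldolase that makes glycine, fell 1.81-fold across oxygen in the reference and was 4.44-fold higher in IMZ383 than in the reference without oxygen, at 855 ± 74.3 against 192 ± 8.24 (0.000663). SHM2 was 2.1-fold lower there (0.00282). In IMZ305, where 8.3% of all probe sets fell, KGD2 fell 1.59-fold and LSC2 1.53-fold. Neither call held after centring, where none of the 8 was called.

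Of 13 other regulators linked to oxygen, heme and sterols, 2 rose and 3 fell in the reference without oxygen, which is near the shares of all probe sets (11% and 23.3%). UPC2 and SUT1, factors of sterol uptake, rose 2.67-fold (adjusted p = 0.00059) and 3.34-fold (0.0012). HAP3 and HAP4, subunits of the respiratory CCAAT-binding complex, fell 2.36- and 2.23-fold, and MOT3, a co-repressor of hypoxic genes, fell although only 1 of 3 anaerobic arrays read it above the controls. MGA2, an activator of OLE1, fell 3.29-fold in IMZ305, from 44.8 ± 11.4 to 14 ± 4.9 (0.00689), HAP3 fell 1.86-fold and UPC2 rose 1.62-fold there. These 2 falls and 1 rise of the 13 are near the shares of all probe sets in IMZ305 (8.3% and 6.09%). They became 1 fall and no rise with the BioB level in the model, and 1 to 2 falls and 0 to 1 rises without 1 array. In IMZ383 against the reference only 1.69% of all probe sets rose and 0.593% fell. None of the 13 was called there by limma, and 1 had an unadjusted p under 0.05.

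The 5 genes whose log2 signal over the 12 arrays was most like that of HEM13, among 5805 candidate probe sets, were YML083C, HMS1, ANB1, FLO11 and SLC1, with Pearson r from 0.979 to 0.984. Being picked for likeness to HEM13, all follow the oxygen groups: FLO11, a cell surface flocculin, averaged 43.5 and 56.7 in the groups with air and 1928 and 1432 in those without oxygen. With air, YML083C averaged 0.3 in the reference and 0.267 in IMZ305, and HMS1 0.333 and 0.4, all under the floor of 1.1. Both were candidates only through their signal without oxygen. The genes most like ROX1 were LAA1, IKS1, SSY5, FPK1 and SSN2 (r from 0.941 to 0.955), which had their lowest mean in the reference without oxygen, as ROX1 did. Those most like HEM14 were GYP8, STE20, VPS16, GLC7 and YDL177C (r from 0.899 to 0.936), with their lowest mean in IMZ305. Of the 5 most like HAP1 probe set 3270_f_at (r from 0.843 to 0.905), YOR192C-B, YGR109W-B, YIL060W, YHR214C-B and PMA1, 4 were also read by sets with the shared suffix. These likenesses rest on 4 groups of arrays and describe which genes share the group pattern.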

How the data were processed

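The deposited file gives 1 intensity per probe set and array, on a linear scale. The sources used here do not name the image analysis or summary software. After trimming 2% of probe sets at each end, the array means were 150.12 to 150.15, so the authors had scaled each intensity to a common level, which hides any change shared by all transcripts. Per the labels, 200 ng of total RNA was labelled with biotin by 3' in vitro transcription.

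The array held 9335 probe sets, from which 60 controls were removed to leave 9275 for testing. Signals were floored at 1.1, the 10th percentile, and taken to log2. limma 3.58.1 in R 4.3.3 fitted 1 mean per group over all 12 arrays with empirical Bayes moderation; folds are powers of 2 of its log2 change. Detection was set against the highest of 19 non-target controls of the same array (15 bacterial, 4 mouse; highest value 7.5), and a fold over a group under it on all arrays is given as "at least". The script was tested on simulated data. The number of arrays limits the precision. A p-value sets a group difference against the spread between arrays within groups. With 1 array per culture, that spread holds both culture and array handling.

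The members and gene lists were chosen with earlier results of these data known. All 10 members are named, with up to 4 called genes per list and comparison by adjusted p, and the 5 genes most alike in pattern for HEM13, HEM14, ROX1 and HAP1 among probe sets of 1 gene whose mean exceeded 6.9, the 25th percentile. Genes beyond these that make up a small count, and CYC7, CYB5, SCS7, OLE1, GLY1 and DIT2, were named after their values were seen. CYC7, CYC1, CYT1, CYB2, CTT1, YHB1 and COX5B are in more than 1 list. Alternatives were quantile normalization, median centring, other floors, a filter on low signal, 1 probe set per gene, array weights, a trended robust prior, a block for the culture number, a fit to only the groups compared, a threshold of 0.005, the BioB level (low under 20) as a covariate, the other HAP1 probe sets and leaving out each array. The cultures' numbers did not pair them: deviations of same-numbered arrays correlated between -0.048 and 0.0479. Promoter and protein sequences, and the E. coli genes, were not analysed here.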

Additional observations from a re-analysis of the deposited data

Results flagged for a closer look

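The difference of HEM3 from the reference was not the same in IMZ383 without oxygen as in IMZ305 with air, by a call that depended on the arrays used. The effect in IMZ383 without oxygen minus that in IMZ305 with air was 1.18 on the log2 scale (SE 0.29, limma adjusted p = 0.0367), with HEM3 lower on each of the 3 IMZ305 arrays than on any aerobic reference array, and 2 of 3 reference arrays without oxygen below all IMZ383 arrays. That call was lost when any of 9 of the 12 arrays was left out and under 4 of 10 other settings. The strains differ in deletions and plasmid, and each was grown under a single oxygen condition, so strain and oxygen cannot be told apart. The part of the arrays was not tested.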

How the results depend on the processing

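The fits kept the direction of each called member change under all settings run. Of the 2 genes called in IMZ305, 1 was called after median centring, without a floor and in a fit to only the groups compared, and 0 at a threshold of 0.005, with the BioB level as covariate and with the culture number as a replicate block; array weights gave 3, with HEM14 (adjusted p = 0.0362), and leaving out 1 array 0 to 2. In IMZ383 the 0 calls became 1 with HAP1 probe set 10058_at. Across oxygen in the reference the 5 calls became 3 in a fit to only the groups compared, 2 at 0.005 and 3 with the BioB level. Between IMZ383 and IMZ305 the 5 calls became 1 at 0.005 and 1 with the BioB level, 7 with array weights (5 higher, and HEM4 and ROX1 lower), and 3 to 5 without 1 array. For the difference between the strain effects the 1 call became 0 after centring, without a floor, at 0.005, with the BioB level and with the replicate block, 3 with array weights (HEM3, HEM12 and HEM14), and 0 or 1 without 1 array. The block ended the calls of HEM3 (adjusted p = 0.0593) and HEM12 (0.0592) in IMZ305, of HEM4 across oxygen (0.0645) and of HEM3 in the difference (0.0741), and no other call of a member. In the reference, HEM12 (0.0625) and HEM4 (0.0826) were not called in a fit to only the groups compared.

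Over all probe sets, the 1335 calls in IMZ305 became 832 in a fit to only the groups compared, 321 at 0.005, and 701 and 666 without IMZ305 array 1 and 2. The 212 calls in IMZ383 became 74, 50, 393 with array weights, and 141 and 133 without reference array 2 and 3 without oxygen. Across oxygen in the reference 3175 became 1658 at 0.005. Between IMZ383 and IMZ305, 2424 became 1056 at 0.005, 3663 with array weights and 769 with the BioB level, and the share of rises, 38.7%, became 50.5% after quantile normalization and 60.4% after centring. The 823 calls of the difference became 185 at 0.005, 1449 with array weights, and 515, 479 and 517 without IMZ305 array 1, IMZ305 array 2 and reference array 3 without oxygen. Why these counts moved was not tested beyond the construction of each setting.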
